A study of Mus musculus with 12 samples.

Results

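The Fos and Jun genes encode the subunits of AP-1, a transcription factor that binds DNA as a dimer of leucine zipper proteins. Fos proteins (Fos, Fosb, Fosl1 and Fosl2) need a partner and pair with Jun proteins, whereas Jun proteins (Jun, Junb and Jund) can also pair with one another. Several of these genes are immediate early genes, transcribed within minutes of a growth factor or stress signal, and AP-1 can act together with the Smad proteins that carry the signal of transforming growth factor beta (TGFb). Their RNA levels were read from every gene probe that carries one of the 7 gene names: 8 of 39429 distinct gene probes, 2 of them for Fosl2 and 1 for each of the others. All 8 probes were well above background on all 12 arrays, and all passed the filter on dim probes that 29972 probes passed. With the brighter Fosl2 probe, the family makes up 7 of the 24149 genes tested.

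The arrays held RNA of mouse neural stem cells dissected from the cerebral cortex of E12.5 embryos and grown in culture, stably transfected either with a random shRNA (control) or with an shRNA against JMJD3 (knockdown). JMJD3, the product of Kdm6b, is a histone demethylase that takes methyl marks off lysine 27 of histone H3, a mark of silent genes. Both lines received vehicle or TGFb at 5 ng/ml for 2.5 h, which gives 4 groups of 3 samples: control with vehicle, control with TGFb, knockdown with vehicle and knockdown with TGFb. No other time was sampled, so a short-lived change before 2.5 h would not be seen. The labels do not say whether each stable line was a clone or a pool, and any difference between the lines other than the shRNA cannot be told apart from the knockdown. Nor do they say that replicates were separate cultures, so each p-value covers the spread among the deposited samples alone, and that spread may be technical. With 3 arrays a group, precision is limited. Log2 changes had a median standard error (SE) of 0.10 over all genes, and differences in TGFb response one of 0.14.

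Processed signals had an array 75th percentile of 3175 to 4462, and 0 spots were saturated. Levels below are log2 signals relative to that percentile, so 0 is the percentile itself. Replicates of a group correlated with r of 0.994 to 0.998 across genes, which are not independent of one another. Kdm6b itself was lower in the knockdown by 2.24-fold with vehicle (log2 change -1.16 ± 0.05 SE, limma adjusted p = 1.05e-07) and 2.63-fold under TGFb (-1.40 ± 0.05 SE, limma adjusted p = 2.85e-08). All 9 neural stem cell markers, among them Nes and Sox2, were well above background on every array. So were all 5 astrocyte markers, 5 of 6 neuron markers and 5 of 6 oligodendrocyte lineage markers. The same held for 4 of 6 microglial, 4 of 5 endothelial, and 2 of 6 fibroblast and meningeal markers. Aif1 of the microglial list, Cdh5 of the endothelial and Twist1 of the fibroblast and meningeal list were not well above background on any array. The arrays lay on 4 slides, and all 12 pairs of arrays of different groups on a shared slide deviated together from their group means (correlations of 0.18 to 0.58), so values within slides are given beside the results.

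Promoter sequences show what lies next to the start sites of the 4 genes whose RNA moved most, Fos, Jun, Junb and Jund. The 250 bases before each RefSeq gene start (build GRCm38.p6, read 5′ to 3′ on the gene's strand) were searched on both strands for 9 motifs, and matches are in capitals. The windows are chr12:85473640-85473889 (plus strand) for Fos, chr4:95052223-95052472 (minus) for Jun, chr8:84978749-84978998 (minus) for Junb and chr8:70697489-70697738 (plus) for Jund.
Fos: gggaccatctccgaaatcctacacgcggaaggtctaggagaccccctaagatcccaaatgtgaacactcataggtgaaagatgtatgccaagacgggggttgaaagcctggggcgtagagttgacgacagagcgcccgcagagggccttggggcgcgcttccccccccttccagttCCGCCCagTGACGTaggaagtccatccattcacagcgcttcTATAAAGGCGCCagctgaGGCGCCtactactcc
Jun: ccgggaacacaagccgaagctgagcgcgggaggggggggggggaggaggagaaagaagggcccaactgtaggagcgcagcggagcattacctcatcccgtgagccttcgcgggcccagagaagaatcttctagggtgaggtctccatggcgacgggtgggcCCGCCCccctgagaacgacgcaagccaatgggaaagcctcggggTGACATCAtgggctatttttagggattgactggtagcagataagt
Junb: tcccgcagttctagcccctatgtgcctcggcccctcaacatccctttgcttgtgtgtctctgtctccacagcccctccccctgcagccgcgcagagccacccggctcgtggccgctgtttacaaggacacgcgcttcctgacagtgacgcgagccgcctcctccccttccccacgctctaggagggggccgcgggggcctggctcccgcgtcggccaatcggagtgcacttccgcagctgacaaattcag
Jund: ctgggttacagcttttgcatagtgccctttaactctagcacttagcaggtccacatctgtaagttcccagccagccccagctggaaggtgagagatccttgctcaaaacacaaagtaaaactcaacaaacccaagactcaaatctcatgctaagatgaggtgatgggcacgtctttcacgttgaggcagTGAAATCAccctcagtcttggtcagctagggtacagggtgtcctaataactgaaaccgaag

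The Fos window holds a TATA box (TATAAA, at -33 to -28 from the start), followed without a gap by the first of 2 copies of GGCGCC, a GC-rich element that Smad proteins can bind. It also holds TGACGT, the core of a cyclic AMP response element, at -66 to -61, and a GC box (GGGCGG, here on the other strand) at -74 to -69. Background shares among 32851 windows of the same length were 12.4% for TATAAA, 9.59% for GGCGCC, 6.47% for TGACGT and 32.7% for GGGCGG. The Jun window holds TGANNTCA, an AP-1-like site with 2 free middle bases, at -45 to -38, and a GC box at -89 to -84. The Jund window holds TGANNTCA at -61 to -54, and 11.9% of all windows hold that motif. TGANNTCA and TGACGT were added to the search after the windows had been read, so their presence here is no test. The Junb window holds none of the 9. Windows were in the table for 6 of the 7 genes (Fosl1 was not matched), and 0 of the 6 held the AP-1 site TGANTCA (6.75% of all windows), the full element TGACGTCA (1.55%), a CArG box, the site of serum response factor (1.47%), or the Smad element GTCTAGAC (0.167%). GGCGCC was in 3 of the 6 windows, that of Fos and those of Fosb and Fosl2, which are not shown. Any of these letters outside the 250 bases were not searched for, and a match describes the sequence only.

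Over the family, TGFb changed 2 of the 7 genes in control cells, both upward (Junb and Jund), where 10.1% of all genes tested were called (5.43% higher, 4.72% lower). In knockdown cells TGFb changed 3 of 7, again all upward (Fos, Junb and Jund), where 9.49% of all genes were called (4.74% higher, 4.75% lower). The knockdown changed 5 of 7 with vehicle, with Fos higher and Fosl2, Jun, Junb and Jund lower, where 27.8% of all genes were called (12.5% higher, 15.3% lower). With TGFb present it changed 3 of 7, with Fos higher and Jun and Jund lower, where 29% of all genes were called (12% higher, 17% lower). A gene is called at a limma adjusted p under 0.05, adjusted over all 24149 genes. The arrays of the 2 groups did not overlap for 2 of the 7 genes with TGFb in control cells (22% of all genes) and for 5 in knockdown cells (24%). For the knockdown they did not overlap for 5 with vehicle (41%) and for 3 with TGFb (38.7%). The difference between the TGFb responses of the lines was called for 0 of the 7 and for 0.087% of all genes (21 genes by limma, and 1233 at an unadjusted p under 0.05). In it, 2 of the 7 had an unadjusted p under 0.05, Fos and Junb. The 4 comparisons of 2 groups share arrays with one another (each group enters 2 of them), so they are not independent.

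**Figure D1:**
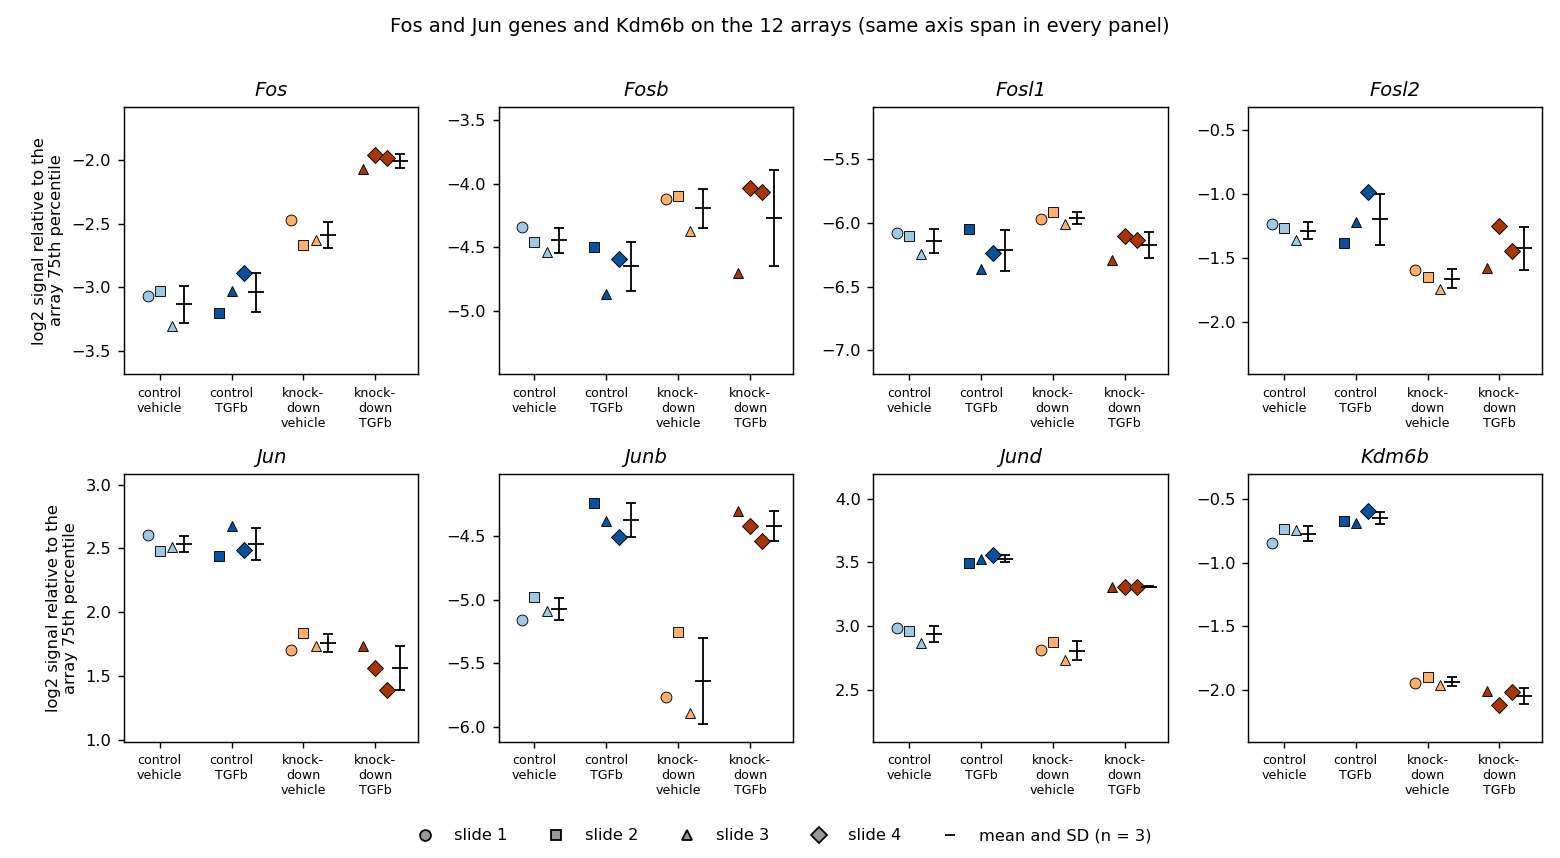
Signal on the log2 scale, with the array's 75th percentile at 0 (vertical axis, the same span in every panel) for the 7 Fos and Jun genes and Kdm6b in the 4 groups (horizontal axis). Each point is 1 array, its shape gives the slide, and the bars are the mean and SD of 3 arrays. Fos is highest in knockdown cells with TGFb (-2.07 to -1.96), Jun is lower on all 6 knockdown arrays, and Junb and Jund are higher with TGFb in both lines.

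Among the Fos genes, Fos rose in the knockdown, and rose further with TGFb in knockdown cells. Fos is the founding member, an immediate early gene whose RNA is short-lived. Its probe lies at chr12:86817900-86817959 (mm9, plus strand) and was printed 10 times on each array. In control cells with vehicle its level was -3.07, -3.03 and -3.30 on the 3 arrays, and with TGFb -3.20, -3.03 and -2.89. In knockdown cells with vehicle it was -2.47, -2.67 and -2.63. With TGFb it was -2.07, -1.96 and -1.99. The 6 control arrays overlap between treatments and all lie below the 6 knockdown arrays, whose treatments do not overlap with each other. The 10 spots on an array had an SD of 0.03 to 0.08, below the SD between arrays in 3 of the 4 groups and near it in knockdown cells with TGFb (0.05, n = 3).

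The knockdown raised Fos by 0.54 ± 0.10 (log2 change ± SE) with vehicle, a 1.46-fold rise (limma adjusted p = 0.00146). With TGFb present the rise was 1.03 ± 0.10, or 2.05-fold (limma adjusted p = 1.62e-05). TGFb raised Fos by 0.58 ± 0.10 in knockdown cells (limma adjusted p = 0.00202). In control cells the change with TGFb was 0.09 ± 0.10 and did not pass (limma adjusted p = 0.75). The groups in order of level were control with vehicle (-3.13 ± 0.15 SD, n = 3), control with TGFb (-3.04 ± 0.15), knockdown with vehicle (-2.59 ± 0.10) and knockdown with TGFb (-2.01 ± 0.05), of which the first pair did not differ beyond their spread. The TGFb response was larger in knockdown than in control cells by 0.49 ± 0.14, with a 95% interval of 0.19 to 0.79 and an unadjusted p of 0.00426 in limma. After adjustment over all genes this difference did not pass (limma adjusted p = 0.474). All 3 called Fos changes passed under every one of the 28 alternatives run, and the TGFb change in control cells under none. Within slides the knockdown gave 0.59, 0.37 and 0.67 with vehicle and 0.96 and 0.91 with TGFb. On the only slide with both treatments of knockdown cells TGFb gave 0.56, and on the 2 slides with both of control cells it gave -0.17 and 0.27.

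Fosb, a close relative of Fos that is also induced by signals, did not pass the test in any of the 5 comparisons. Its probe lies at chr7:19888168-19888227 (mm9, minus strand). Its level was -4.34, -4.46 and -4.54 in control cells with vehicle and -4.49, -4.86 and -4.59 with TGFb. In knockdown cells it was -4.12, -4.09 and -4.37 with vehicle and -4.70, -4.03 and -4.07 with TGFb. The groups overlap, and replicate 1 of knockdown cells with TGFb lies well under the other 2 of its group. The knockdown gave 0.25 ± 0.17 with vehicle (limma adjusted p = 0.356) and 0.38 ± 0.17 with TGFb (limma adjusted p = 0.125). Without that array the second value was 0.60 (limma adjusted p = 0.00648), and with slide as a fixed block it was 0.33 (limma adjusted p = 0.0409). This second change passed under 4 of the 28 alternatives only. TGFb gave -0.20 ± 0.17 in control and -0.07 ± 0.17 in knockdown cells (limma adjusted p = 0.666 and 0.863).

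Fosl1, which encodes Fra-1, a Fos protein without the strong activation domain of Fos, did not pass in any comparison. Its probe lies at chr19:5455496-5455555 (mm9, plus strand) and was dim, with processed signals of 40.5 to 69.4. Its level ranged from -6.25 to -6.08 in control cells with vehicle, -6.36 to -6.05 with TGFb, -6.01 to -5.92 in knockdown cells with vehicle and -6.29 to -6.11 with TGFb. The 3 knockdown arrays with vehicle lie above those of the groups they are compared with, by little. The knockdown gave 0.18 ± 0.12 with vehicle (95% interval -0.10 to 0.45, limma adjusted p = 0.364), and TGFb gave -0.21 ± 0.12 in knockdown cells (95% interval -0.49 to 0.06, limma adjusted p = 0.393). The other 2 changes were -0.07 ± 0.12 with TGFb in control cells and 0.04 ± 0.12 for the knockdown with TGFb.

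Fosl2, which encodes Fra-2, fell in the knockdown with vehicle. Of its 2 probes the brighter lies at chr5:32460076-32460135 and the dimmer at chr5:32455088-32455147 (mm9, plus strand). On the brighter probe the level was -1.23, -1.27 and -1.36 in control cells with vehicle and -1.38, -1.22 and -0.99 with TGFb. In knockdown cells it was -1.60, -1.65 and -1.74 with vehicle and -1.58, -1.25 and -1.45 with TGFb. The knockdown arrays with vehicle lie below all 9 others, by little against replicate 1 of knockdown cells with TGFb, and the other groups overlap. The fall was 0.38 on the log2 scale (-0.38 ± 0.10 SE, or 1.30-fold, limma adjusted p = 0.0189), and within slides it was -0.37, -0.38 and -0.38. It did not pass without control vehicle replicate 1 (limma adjusted p = 0.0613), control vehicle replicate 2 (0.0536) or knockdown vehicle replicate 3 (0.0724). With TGFb present the knockdown gave -0.23 ± 0.10 (limma adjusted p = 0.131). With slide as a fixed block that value was -0.32 (limma adjusted p = 0.00687), but the change passed under 3 of the 28 alternatives only. The dimmer probe gave -0.34 ± 0.13 with vehicle and -0.15 ± 0.13 with TGFb, which did not pass in a fit of all probes (limma adjusted p = 0.0677 and 0.44). TGFb gave 0.09 ± 0.10 in control and 0.24 ± 0.10 in knockdown cells on the brighter probe (limma adjusted p = 0.796 and 0.232).

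Among the Jun genes, Jun fell in the knockdown under both treatments and did not pass with TGFb in either line. Jun encodes c-Jun, the strongest activator of the Jun proteins and the main target of the Jun N-terminal kinases. Its probe lies at chr4:94716928-94716987 (mm9, minus strand). Its level was 2.60, 2.48 and 2.51 in control cells with vehicle and 2.44, 2.67 and 2.49 with TGFb. In knockdown cells it was 1.70, 1.84 and 1.74 with vehicle and 1.73, 1.56 and 1.39 with TGFb. All 6 knockdown arrays lie below all 6 control arrays, and the treatments overlap within each line. The knockdown changed Jun by -0.77 ± 0.09 with vehicle, a 1.71-fold fall (limma adjusted p = 5.47e-05). Under TGFb it changed by -0.97 ± 0.09, a 1.96-fold fall (limma adjusted p = 1.09e-05). Both falls passed under all 28 alternatives, with values from -0.83 to -0.74 and from -1.10 to -0.89. Within slides they were -0.90, -0.64 and -0.78 with vehicle and -0.94 and -1.01 with TGFb. TGFb gave 0.00 ± 0.09 in control cells (95% interval -0.19 to 0.19, limma adjusted p = 0.999). In knockdown cells it gave -0.20 ± 0.09 (limma adjusted p = 0.232), and -0.28 with estimated array weights (limma adjusted p = 0.0316). The change in knockdown cells passed under that 1 of the 28 alternatives only.

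Junb rose with TGFb in both lines. Its protein is a weaker activator than c-Jun on many promoters, and the gene is known as an early target of TGFb and Smad signalling. Its probe lies at chr8:87501881-87501940 (mm9, minus strand) and was dim, with processed signals of 66.1 to 192. Its level was -5.16, -4.98 and -5.09 in control cells with vehicle and -4.24, -4.38 and -4.51 with TGFb. In knockdown cells it was -5.77, -5.25 and -5.89 with vehicle and -4.31, -4.42 and -4.54 with TGFb. All 6 arrays with TGFb lie above all 6 with vehicle, the lines overlap with TGFb, and the 3 knockdown arrays with vehicle are the lowest of the 12 and spread the most. TGFb raised Junb by 0.70 ± 0.15 in control cells, or 1.62-fold (limma adjusted p = 0.0126). In knockdown cells the rise was 1.21 ± 0.15, or 2.32-fold (limma adjusted p = 0.000294). Within slides the rise was 0.74 and 0.70 in control cells and 1.58 in knockdown cells. With normexp background correction it was 0.49 and 0.76 and passed in both lines (limma adjusted p = 0.0376 and 0.00234). The rise in control cells did not pass without control vehicle replicate 1 (limma adjusted p = 0.0507) or without control TGFb replicate 1 (0.0508).

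With vehicle, Junb was lower in the knockdown by 0.56 on the log2 scale (-0.56 ± 0.15 SE, or 1.48-fold, limma adjusted p = 0.0185). With TGFb the lines differed by -0.05 ± 0.15 (95% interval -0.39 to 0.29, limma adjusted p = 0.865). In order of level, knockdown with vehicle (-5.64 ± 0.34 SD, n = 3) was followed by control with vehicle (-5.08 ± 0.09), knockdown with TGFb (-4.42 ± 0.12) and control with TGFb (-4.38 ± 0.13), of which the last pair did not differ beyond their spread. The vehicle difference did not pass with normexp background correction (-0.33, limma adjusted p = 0.0924), with the authors' processed values (-0.29, limma adjusted p = 0.0858), in a fit of only those 2 groups (0.0588), or without control vehicle replicate 2 (0.0622) or 3 (0.0508) or knockdown vehicle replicate 1 (0.0689) or 3 (0.0781). The TGFb response was larger in knockdown than in control cells by 0.52 ± 0.22 (95% interval 0.03 to 1.00, unadjusted p = 0.038 in limma). After adjustment that difference did not pass (limma adjusted p = 0.964), and it was 0.27 with normexp background correction and 0.22 with the authors' processed values.

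Jund rose with TGFb in both lines. It encodes JunD, which many cell types make at a steady level without a stimulus. Its probe lies at chr8:73224436-73224495 (mm9, plus strand) and was bright, with processed signals of 25731 to 50504. Its level was 2.99, 2.97 and 2.87 in control cells with vehicle and 3.50, 3.53 and 3.55 with TGFb. In knockdown cells it was 2.81, 2.88 and 2.73 with vehicle and 3.31 on all 3 arrays with TGFb. All 6 arrays with TGFb lie above all 6 with vehicle, and among the arrays with TGFb the knockdown lies below the control. TGFb raised Jund by 0.59 ± 0.05 in control cells, or 1.50-fold (limma adjusted p = 4.85e-06). In knockdown cells the rise was 0.50 ± 0.05, or 1.42-fold (limma adjusted p = 1.95e-05). Both rises passed under all 28 alternatives, and within slides they were 0.53 and 0.66 in the control line and 0.58 in the knockdown. The difference between the 2 responses was -0.08 ± 0.06, with a 95% interval of -0.23 to 0.06 (limma adjusted p = 0.964).

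The knockdown lowered Jund by 0.22 on the log2 scale with TGFb (-0.22 ± 0.05 SE, or 1.16-fold, limma adjusted p = 0.004), and within slides the change was -0.22 and -0.25. That fall did not pass with normexp background correction (-0.18, limma adjusted p = 0.0976) or with the authors' processed values (-0.13, limma adjusted p = 0.181). With vehicle the change was -0.13 ± 0.05, at the edge of the threshold (limma adjusted p = 0.0497), on arrays that overlap. It passed under 7 of the 28 alternatives only.

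**Figure D2:**
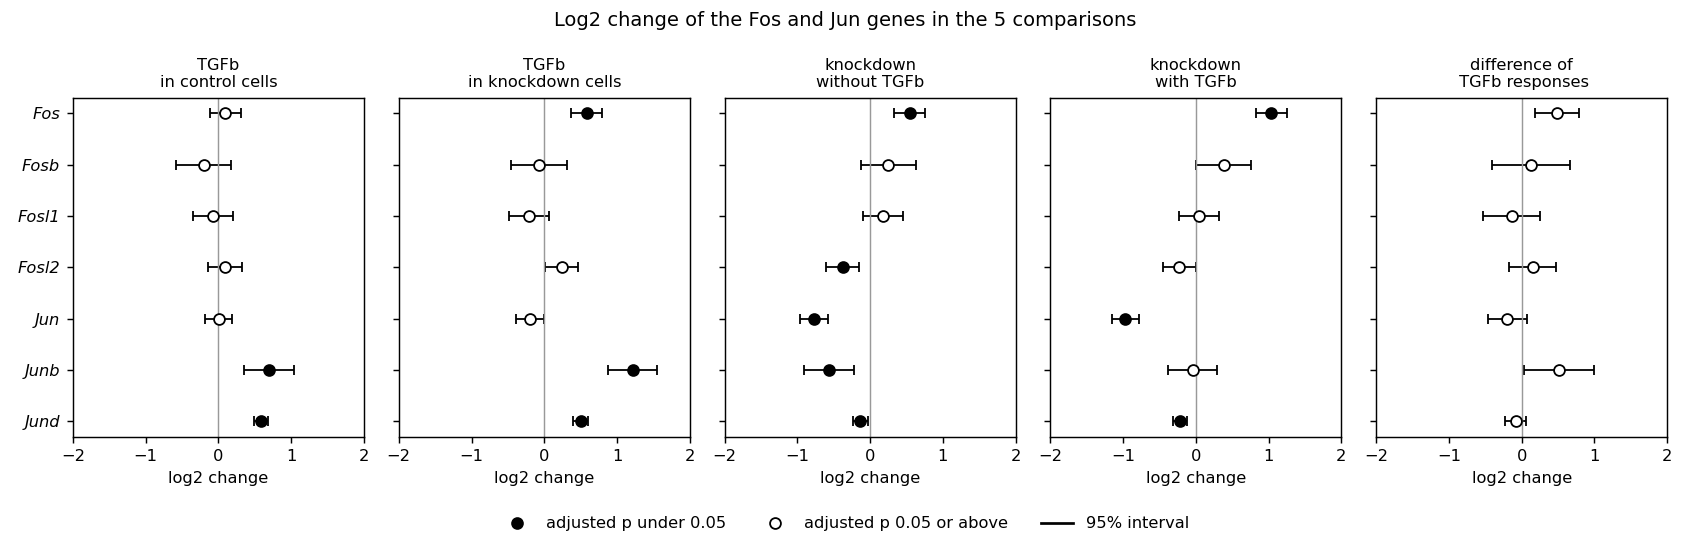
Log2 change (horizontal axis) of the 7 Fos and Jun genes (vertical axis) in the 5 comparisons, with 95% intervals from the fit over 12 arrays. Filled points passed an adjusted p under 0.05, and open points did not. Junb and Jund are filled for TGFb in both lines, Fos and Jun lie on opposite sides of 0 in both knockdown comparisons (1.03 and -0.97 with TGFb), and 0 of the 7 are filled for the difference of responses.

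Fos and Junb were the members whose group means differed by at least 1 on the log2 scale between some groups (ranges of 1.13 and 1.26). For each, the genes with the nearest pattern were taken as those with the smallest mean absolute difference over the 12 arrays, after each gene was centred on its own mean. For Fos these were Ppp2r5a, a regulatory subunit of protein phosphatase 2A (0.10), Nars2, a mitochondrial asparaginyl-tRNA synthetase (0.12), and Alpl, tissue-nonspecific alkaline phosphatase (0.13). For Junb they were Cckbr, a receptor for gastrin and cholecystokinin (0.12), Traf6, a ubiquitin ligase of receptor signalling (0.13), and Tmem178 (0.14). Centred group means of Ppp2r5a ran from -0.52 to 0.58 and those of Fos from -0.44 to 0.69. These genes were picked from the whole table for their likeness, so the likeness is a description.

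**Figure D3:**
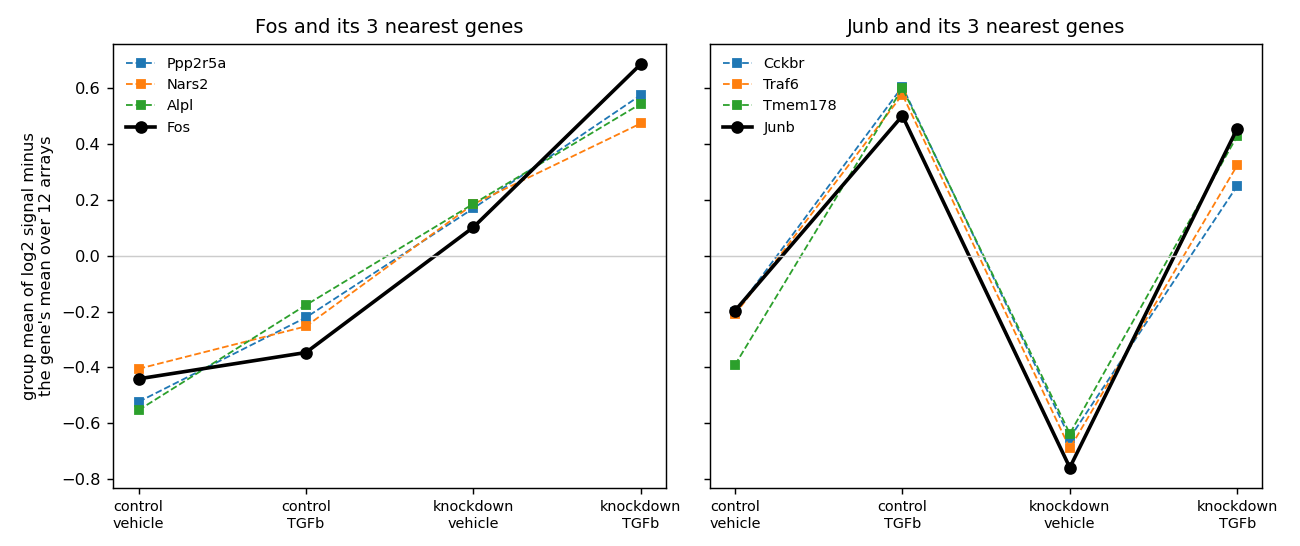
Group means of the log2 signal, each gene centred on its mean over 12 arrays (vertical axis), in the 4 groups (horizontal axis) for Fos (left) and Junb (right) with their 3 nearest genes. Fos (black) runs from -0.44 in control cells with vehicle to 0.69 in knockdown cells with TGFb, and Junb from -0.76 in knockdown cells with vehicle to 0.50 in control cells with TGFb; lines join the groups only to guide the eye.

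The other leucine zipper genes that can pair with Fos or Jun proteins, or bind like sites, also moved in both directions. This list and those of the next paragraphs were chosen with earlier results of these data known, so their shares called are descriptions. Of 28 tested, TGFb raised 6 and lowered 2 in control cells, and raised 5 and lowered 8 in knockdown cells. That is 28.6% and 46.4% of the list called, beside 10.1% and 9.49% of all genes. The list's median log2 change was -0.03 and -0.06, against -0.01 and -0.02 over all genes. Maff, a small Maf protein, rose by 1.16 ± 0.09 and 1.26 ± 0.09, and Jdp2, a repressor that pairs with Jun proteins, by 1.00 ± 0.08 and 0.90 ± 0.08. Cebpd, a C/EBP factor, had changes of -1.05 ± 0.10 and -1.06 ± 0.10 (limma adjusted p = 1.7e-05 or lower for each of these). The knockdown raised 11 and lowered 6 of the 28 with vehicle, and raised 7 and lowered 6 with TGFb (60.7% and 46.4% called, beside 27.8% and 29% of all genes), with list medians of 0.09 and 0.08 against -0.02 and -0.01 over all genes. Atf3, a stress-induced partner of Jun proteins, was higher by 1.37 ± 0.14 with vehicle and 0.85 ± 0.14 with TGFb, and Batf3 by 0.94 ± 0.12 and 0.73 ± 0.12. With TGFb, Atf3 itself changed by -0.81 ± 0.14 in knockdown cells (limma adjusted p = 0.0029) and gave -0.29 ± 0.14 in control cells (limma adjusted p = 0.317). The difference of these responses did not pass (limma adjusted p = 0.89).

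Of 30 kinases and factors that act on the Fos and Jun genes or proteins, TGFb raised 2 and lowered 3 in control cells and raised 3 and lowered 3 in knockdown cells, which is 16.7% and 20% called beside 10.1% and 9.49% of all genes. Mapk7, the kinase ERK5, fell by 0.76 on the log2 scale in control cells (-0.76 ± 0.06, limma adjusted p = 2.51e-06) and had a change of -0.59 ± 0.06 in knockdown cells. Fbxw7, a ubiquitin ligase subunit that marks c-Jun for decay, rose by 0.48 ± 0.12 in control cells and 0.80 ± 0.12 in knockdown cells (limma adjusted p = 0.0221 and 0.000799), the first of which did not pass under 7 of 27 alternatives. The knockdown raised 4 and lowered 6 with vehicle, and raised 3 and lowered 5 with TGFb. Those shares, 33.3% and 26.7%, lie near the 27.8% and 29% of all genes. Map3k1, which acts above the Jun N-terminal kinases, changed by -0.82 ± 0.07 with vehicle and -0.33 ± 0.07 with TGFb, and Map3k7, the kinase TAK1, by -0.47 ± 0.07 with vehicle and -0.55 ± 0.07 with TGFb. Mapk10, a Jun N-terminal kinase, was higher by 0.54 ± 0.08 and 0.50 ± 0.08. Fbxw7 was also higher in the knockdown, by 0.42 ± 0.12 with vehicle and 0.75 ± 0.12 with TGFb (limma adjusted p = 0.0197 and 0.000603). Rps6ka1 changed by -0.62 ± 0.07 under both treatments. The list's medians lay between -0.06 and -0.02 in these 4 comparisons.

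Of 21 tested genes known from textbooks as AP-1 targets, TGFb raised 7 and lowered 3 in each line (47.6% called, beside 10.1% and 9.49% of all genes), with list medians of 0.12 in both against -0.01 and -0.02 over all genes. The 7 include Il6, an interleukin, which passed the filter on dim probes only through its arrays with TGFb. Il6 was not well above background on any vehicle array, so the size of its rise is uncertain. Set against a floor, its mean with TGFb was 4.21-fold higher in control and 1.24-fold higher in knockdown cells. The floor was, per vehicle array, its own signal or the lowest signal of any probe well above background, whichever was higher. These folds hold for the main processing only and are not lower bounds. With normexp background correction the fitted change of Il6 was smaller in control cells, 0.74 on the log2 scale, and 0.36 in knockdown cells. With the authors' processed values it was 0.71 in control cells, and the change in knockdown cells did not pass (limma adjusted p = 0.0707). Lif, a related cytokine, had changes of -1.26 ± 0.12 and -1.15 ± 0.12, which were -0.46 and -0.35 with normexp. The knockdown raised 6 and lowered 6 with vehicle and raised 5 and lowered 6 with TGFb (57.1% and 52.4% called, beside 27.8% and 29% of all genes). Ccnd1, the cell cycle gene of cyclin D1, was lower by -0.79 ± 0.05 and -0.89 ± 0.05 (limma adjusted p = 1.34e-06 and 6.05e-07), and Spp1, osteopontin, was higher by 1.01 ± 0.07 and 0.80 ± 0.07.

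Of 29 other immediate early genes tested, TGFb raised 5 and lowered 11 in each line (55.2% called, beside 10.1% and 9.49% of all genes), with list medians of -0.24 and -0.13 against -0.01 and -0.02 over all genes. Rhob, a small GTPase, rose by 2.14 ± 0.08 and 2.56 ± 0.08, and Ccn1 (Cyr61 in the array's annotation), a matricellular protein, by 1.81 ± 0.13 and 2.14 ± 0.13. Egr4 changed by -2.18 ± 0.14 in control and -1.16 ± 0.14 in knockdown cells, Myc by -1.83 ± 0.09 and -1.40 ± 0.09, and Arc by -1.75 ± 0.16 and -1.63 ± 0.16 (limma adjusted p of each 0.000229 or lower). The difference of responses did not pass for Egr4 (1.02 ± 0.20, limma adjusted p = 0.152), Myc (0.562) or Arc (0.965). The knockdown raised 7 and lowered 8 with vehicle and raised 8 and lowered 8 with TGFb (51.7% and 55.2% called, beside 27.8% and 29% of all genes). Egr1, a zinc finger factor often induced together with Fos, was lower by -1.12 ± 0.17 with vehicle and -1.17 ± 0.17 with TGFb (limma adjusted p = 0.000524 and 0.000372), on the same arrays on which Fos was higher. Gem, a small GTPase, was higher by 1.34 ± 0.07 and 1.09 ± 0.07.

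**Figure D4:**
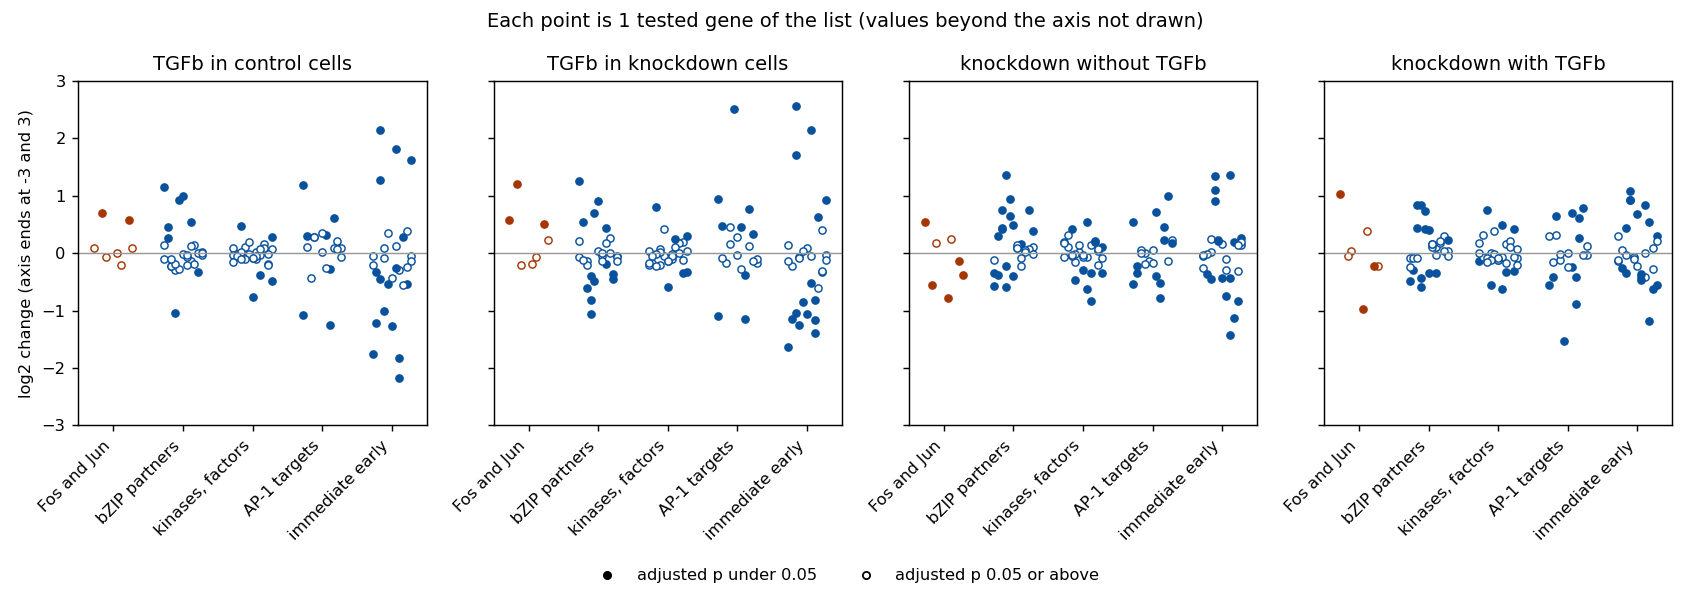
Log2 change (vertical axis) of each tested gene of the 7 Fos and Jun genes and of the 4 other lists (horizontal axis), in the 4 comparisons of 2 groups. Filled points passed an adjusted p under 0.05, and open points did not. The Fos and Jun genes stay within -0.97 and 1.21, while Rhob of the immediate early genes lies at 2.14 and 2.56 for TGFb. The axis ends at -3 and 3, and values beyond it are not drawn. Il6 is drawn at its fitted value where it lies within the axis, although the size of its TGFb response depends on the processing.

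Summed signals of cell type markers moved with TGFb and with the knockdown. Each sum is of linear signals in units of the 75th percentile, given as the range over 3 arrays. Bright markers weigh most in a sum, so it does not show that each marker of a list moved. The 6 oligodendrocyte lineage markers summed to 14.3 to 15.8 in control cells with vehicle and 8.08 to 8.7 with TGFb, and to 12 to 13 and 8.66 to 9.56 in knockdown cells. Their sum was thus lower with TGFb in both lines and lower in the knockdown with vehicle, without overlap, while the lines overlapped with TGFb. The 6 fibroblast and meningeal markers summed to 0.029 to 0.030 with vehicle and 0.046 to 0.053 with TGFb in control cells, and to 0.023 to 0.025 and 0.037 to 0.042 in knockdown cells. Their sum was higher with TGFb and lower in the knockdown, without overlap in any of the 4 comparisons. Of these 6 markers, 2 were well above background on all arrays and Twist1 on none, so their sum rests partly on signals near background. The 5 astrocyte markers summed to 58.5 to 67.6 in control and 54.5 to 58.1 in knockdown cells with vehicle, and to 57.4 to 62.4 and 52.4 to 58.3 with TGFb, so only the lines with vehicle did not overlap. The 6 neuron markers summed to 12.7 to 14.4 in control cells with vehicle and 11.7 to 12.3 with TGFb, and to 13.5 to 14.5 and 12.5 to 14.2 in knockdown cells. Here the treatments of control cells did not overlap, nor did the lines with TGFb. The 9 neural stem cell markers summed to 230 to 254 in control and 257 to 277 in knockdown cells with TGFb, without overlap, and overlapped in the other 3 comparisons. The microglial and endothelial sums overlapped in all 4. Among single genes, the arrays did not overlap for 22% and 24% of all genes with TGFb in control and knockdown cells. For the knockdown they did not overlap for 41% with vehicle and 38.7% with TGFb. The part of these markers in the changes of Fos, Fosl2, Jun, Junb and Jund was not tested, and in these RNA pools fewer cells of a type cannot be told apart from less RNA per cell.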

How the data were processed

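Each of the 12 samples was read on a 1-colour Agilent array after oligo-dT amplification of 500 ng total RNA and Cy3 labelling, per the labels' protocols. The deposited scanner files hold intensities. Their processed signal, the column used, is the background-corrected intensity of Feature Extraction 10.7.3.1 with probes placed on mm9, per the file headers. The authors' deposited value table holds log2 values. Its 12 columns each matched their own array best and share a median of 7.93, and its background correction is not given in the sources used here.

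Control and outlier spots were left out, spots of a probe averaged, and each array's 75th percentile was subtracted on the log2 scale. A probe had to be well above background on every array of 1 group or more, and a gene's brightest such probe stood for it. Genes were named through RefSeq accessions (26055 probes matched). limma 3.58.1 in R 4.3.3 fitted 1 model over the 12 arrays (lmFit, contrasts.fit, eBayes with trend), two-sided, with Benjamini-Hochberg adjustment over 24149 genes and a threshold of 0.05. The fit was tested on simulated data with independent arrays, so that test does not cover the deviations that arrays on a slide share. An exact permutation test of 3 against 3 cannot go below 0.1 and was not used.

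The members, lists, motifs and rules were chosen with earlier results of these data known, and the motifs TGANNTCA and TGACGT after the promoter windows had been read. Named are all members, Kdm6b, up to 4 called genes a list and comparison with the largest change, and the 3 nearest genes of members whose group means differ by at least 1. A few further genes of the lists are left out of the text. Ccn2 was flagged by its own test. Egr1 and Atf3 fall under the rule in the knockdown comparisons. Alternatives were normexp background correction (offset 50), median or quantile scaling, the authors' values, other filters and probe rules, outlier spots kept, slide or replicate blocks, array weights, fits of only the groups compared, no trend, a threshold of 0.01, and each array left out. Probe positions were not set against exons or untranslated regions here.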

Additional observations from a re-analysis of the deposited data

Results flagged for a closer look

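The TGFb response of Ccn2 (Ctgf in the array's annotation), a matricellular immediate early gene in the list examined beside the Fos and Jun genes, differed between the lines by the test of the difference itself. TGFb raised it by 1.63 ± 0.07 (log2 change ± SE) in control cells and by 0.93 ± 0.07 in knockdown cells. The responses differed by -0.69 ± 0.10 (limma adjusted p = 0.0296). The sign was the same under all 26 alternatives (-0.77 to -0.62). The difference did not pass under 13 of them, where the adjusted p reached 0.262. The cause was not tested.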

How the results depend on the processing

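No called change turned its sign under any alternative, and 0 of the 7 genes passed for the difference of responses under any alternative. The genes called moved by over 1.5 times in these cases. With scaling to the array median they were 1516 and 1399 for TGFb in control and knockdown cells, 3963 for the knockdown with vehicle and 5 for the difference of responses. At an adjusted p under 0.01 they were 1571, 1391, 4359, 4568 (knockdown with TGFb) and 4 in turn. With estimated array weights they were 3641 for TGFb in knockdown cells and 52 for the difference. The difference gave 45 with slide as a fixed block, 95 as a random block and 11 with the replicate block. Of its 21 calls 11 were higher, against 1 of 5 with median scaling and 6 of 15 with the authors' values. Of the Fos and Jun genes, 1 was called for TGFb in control cells at 0.01. For the knockdown with vehicle 3 were called with normexp, with the authors' values and in a fit of those groups alone, and 2 at 0.01. For the knockdown with TGFb 5 were called with slide as a fixed or random block. Leaving out 1 array gave 1833 to 2489 genes for TGFb in control cells, 1613 to 2422 in knockdown cells, 5203 to 6960 and 5393 to 7157 for the knockdown with vehicle and TGFb, and 4 to 27 for the difference. The Fos and Jun genes among them were 1 to 2, 3 to 3, 2 to 5, 3 to 4 and 0 to 0. Same-numbered replicates deviated together in only 4 of 18 pairs (correlations of -0.53 to 0.58), so the numbers do not pair samples, and the replicate block lost 1 Fos and Jun call, Jund for the knockdown with vehicle (adjusted p = 0.0695).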
